A study of Mus musculus with 36 samples.

Results

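The protamines Prm1, Prm2 and Prm3, the transition proteins Tnp1 and Tnp2 and the linker histone Hils1 were followed in mRNA libraries of round spermatids and cauda sperm of C57BL/6N mice (C57BL/6 in the labels). The 6 genes were chosen by name, from 54838 genes in the sperm table and 51912 in the round spermatid table, and all 6 had counts in both. When a spermatid condenses its nucleus, most histones are removed, the transition proteins take their place for a short time, and the protamines then pack the DNA into the form that sperm carry. PRM1 and PRM2 are the DNA-packing protamines, PRM3 shares their gene cluster but is an acidic protein, TNP1 and TNP2 are the basic intermediates, and HILS1 is a spermatid linker histone. The mRNAs are made early in haploid development and stored untranslated in RNA-protein particles until the spermatid elongates, so that the mRNA peak precedes the protein.

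Male mice were put on a high-fat diet (HFD, 60% of kcal from fat) or a low-fat diet (LFD, 10% of kcal from fat) at 6 weeks of age for 2 weeks, and were sampled at 8 weeks. Sperm were taken from the cauda epididymis by swim-up followed by lysis of somatic cells, and 3 libraries per diet (HFD libraries 1000, 3000 and 4000, LFD libraries 1000, 2000 and 4000, after the numbers in the columns of counts) were sequenced in single-end reads. Round spermatids, the early haploid cells of the testis, were enriched on a density gradient, and their 6 libraries, from both diets, were sequenced in paired-end reads after removal of rRNA. The names of the spermatid columns do not give the diet, so the diets were compared in sperm alone. Cell type and read layout differ together between sperm and spermatids and cannot be told apart, and removal of rRNA is stated for the spermatids alone. Morula of IVF embryos with HFD or LFD fathers, and liver, eWAT (epididymal white adipose tissue) and gastrocnemius of offspring (6 libraries each), served as tissues without haploid germ cells. Per the study, these offspring were glucose-tolerant or glucose-intolerant males of HFD-fed fathers, and the columns do not show which. Its methods give a 3′ mRNA kit for liver, eWAT and gastrocnemius, and another kit for germ cells and morula. Levels in CPM are therefore not like for like between these kits.

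Library totals were 20138842 to 31056066 counts in round spermatids and 2560219 to 4062321 in sperm, so that a count of 0 allows up to 0.149 and 1.17 CPM (counts scaled to the library total), respectively, by counting error alone. Genes of mtDNA held 1.96 to 2.38% of the counts of spermatids, 78.1 to 84.3% of those of HFD sperm and 43.5 to 64.7% of those of LFD sperm. Levels are therefore given as nuclear CPM, scaled to the counts on genes outside mtDNA alone. Markers of meiotic spermatocytes summed to 1251 to 1411 CPM in the spermatid libraries, with 0 of 13 markers at 0, and those of Sertoli and Leydig cells to 41.6 to 60.4 CPM. Sperm held epididymal epithelium markers (1728 to 27110 CPM in sum, at most 121 in spermatids). They also held markers of leukocytes, erythroid cells and stroma (432 to 4229 CPM, at most 36.0 in spermatids). Cd52 made up much of this second sum, with 862 to 9896 counts per sperm library, so the sum is not a level of these cells. In edgeR's fit, 8 of 9 tested epididymal markers and all 15 of the second list passed as higher in sperm. Of 10 Sertoli and Leydig markers, 7 passed as lower and 1 as higher. Of all genes tested, 48.1% passed as lower and 26.2% as higher. In such bulk samples fewer cells of a type and less RNA per cell cannot be told apart, and the part of these cells in the results was not tested. The study's methods give 3 mice per diet for the purification of round spermatids, but tie no library to an animal, and no number of animals was found for these sperm libraries, so p-values measure the spread between libraries.

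In the sperm table Prm1, Prm2, Prm3 and Tnp2 lie within 17904 bases of chromosome 16 (GRCm38), all on the minus strand. There Prm1 spans chr16:10796326-10805839, Prm2 chr16:10791380-10796134, Prm3 chr16:10790505-10790914 and Tnp2 chr16:10787936-10788660. In the round spermatid table Prm1 ends at 10796886, and the 4 genes lie within 8951 bases. The longer span of Prm1 overlaps Gm46563 and Gm10343 without a shared exon. Tnp1 lies alone at chr1:73015074-73015909 on the minus strand, and Hils1 at chr11:94967593-94968456 on the plus strand, inside the span of Sgca without a shared exon. Tnp1 shares exon sequence with 1700027A15Rik on the opposite strand (41 identical bases), and reads there cannot be told apart without strand. The other 5 members share no exon with another gene of the table. No transcript of another gene matched a member at 90% identity or more over 75 bases or more. The exon lengths used here were 571 bases for Prm1, 894 for Prm2, 410 for Prm3, 437 for Tnp1, 554 for Tnp2 and 864 for Hils1, as in the sperm table. The round spermatid table gives 469 bases for Prm1 and 549 for Tnp2, and the same lengths for the other 4.

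The coding sequences show what sets the members apart. They are given 5′ to 3′ from the mouse transcripts of GENCODE vM21, with the codons for arginine in capitals, for both DNA-packing protamines and for the smaller transition protein.
Prm1, 156 bases: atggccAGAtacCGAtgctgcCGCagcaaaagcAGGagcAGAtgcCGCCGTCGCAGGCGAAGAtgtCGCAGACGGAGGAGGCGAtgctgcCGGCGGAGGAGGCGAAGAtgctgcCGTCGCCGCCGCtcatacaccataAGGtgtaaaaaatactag
Prm2, bases 1 to 300 of 324: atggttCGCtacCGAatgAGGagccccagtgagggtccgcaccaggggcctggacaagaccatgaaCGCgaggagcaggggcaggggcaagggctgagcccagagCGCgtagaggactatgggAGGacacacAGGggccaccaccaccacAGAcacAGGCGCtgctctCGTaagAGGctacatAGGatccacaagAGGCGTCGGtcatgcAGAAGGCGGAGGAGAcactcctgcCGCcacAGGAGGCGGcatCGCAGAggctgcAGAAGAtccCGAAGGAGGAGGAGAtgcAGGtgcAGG
Tnp1, 168 bases: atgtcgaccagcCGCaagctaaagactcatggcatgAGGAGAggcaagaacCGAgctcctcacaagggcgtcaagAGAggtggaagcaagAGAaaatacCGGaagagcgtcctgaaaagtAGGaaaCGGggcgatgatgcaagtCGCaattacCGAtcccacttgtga
Arginine codons make up 28 of 51 codons (54.9%) of Prm1 and 38 of 107 (35.5%) of Prm2. In Tnp1 they make up 11 of 55, beside 10 codons for lysine, and in Tnp2 16 of 117 (13.7%), beside 11 for lysine. In Hils1 the order is turned, with 12 codons for arginine and 19 for lysine among 170. Prm3 holds 2 arginine codons among 101, but 27 codons for glutamate (26.7%).

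Since the members are switched on together after meiosis, the 120 bases before each start site are shown, in the direction of transcription (RefSeq start sites on GRCm38.p6, where all 6 members matched, and which for Prm1, Prm2, Tnp1 and Tnp2 lie inside the spans of the sperm count table). Capitals mark TGANNTCA, the outline of a cAMP-response element such as CREM binds, and TATAAA or TATATA, searched on both strands.
Prm1, chr16:10796824-10796943, minus strand: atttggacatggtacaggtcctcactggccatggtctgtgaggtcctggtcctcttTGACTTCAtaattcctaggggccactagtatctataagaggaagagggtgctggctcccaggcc
Prm2, chr16:10792106-10792225, minus strand: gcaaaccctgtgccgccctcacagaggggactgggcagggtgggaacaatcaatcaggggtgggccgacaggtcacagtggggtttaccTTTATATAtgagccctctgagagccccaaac
Prm3, chr16:10790915-10791034, minus strand: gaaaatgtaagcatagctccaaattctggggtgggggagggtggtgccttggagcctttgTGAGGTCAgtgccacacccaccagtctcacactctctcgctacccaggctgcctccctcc
Tnp1, chr1:73015900-73016019, minus strand: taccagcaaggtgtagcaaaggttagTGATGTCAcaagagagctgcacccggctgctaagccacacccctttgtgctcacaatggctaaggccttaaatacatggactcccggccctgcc
Tnp2, chr16:10788656-10788775, minus strand: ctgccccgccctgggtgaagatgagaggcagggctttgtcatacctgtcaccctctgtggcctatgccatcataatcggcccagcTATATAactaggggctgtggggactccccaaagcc
Hils1, chr11:94967473-94967592, plus strand: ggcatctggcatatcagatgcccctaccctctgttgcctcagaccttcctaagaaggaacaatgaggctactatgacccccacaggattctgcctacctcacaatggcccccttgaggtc
TGANNTCA was found before Prm1 (64 to 57 bases before the start), Prm3 (60 to 53) and Tnp1 (94 to 87), and in 7.14% of all 32851 windows of this length. The full palindrome TGACGTCA was before none of the 6 genes and in 1.24% of all windows. TATATA was before Prm2 and Tnp2 (2.51% of all windows), and TATAAA, read on the other strand and overlapping TATATA, before Prm2 (6.34%). These matches are descriptions of the windows and not binding sites.

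All 6 mRNAs were present in every round spermatid library. Per kilobase of exon, the mean was 3772 ± 487 nuclear CPM for Prm2, 3109 ± 385 for Prm1, 2492 ± 334 for Tnp2, 1015 ± 131 for Tnp1, 355 ± 26.2 for Hils1 and 247 ± 43.8 for Prm3 (SD, n = 6). The ranges of Prm2 (3170 to 4331) and Prm1 (2664 to 3759) overlapped, as did those of Prm1 and Tnp2 (1966 to 2868). With the lengths of the spermatids' own table, Prm1 was at 3785 ± 469 (SD, n = 6), so the order of Prm2 and Prm1 in spermatids depends on the length used. Tnp1, Hils1 and Prm3 each lay wholly below the member before it in this order. Together the 6 genes took 0.738% ± 0.0850 (SD, n = 6) of the nuclear counts.

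In cauda sperm the order was another. Per kilobase, the mean was 3048 ± 1424 nuclear CPM for Prm2, 932 ± 381 for Prm1, 284 ± 139 for Tnp1, 240 ± 175 for Tnp2, 55.4 ± 44.5 for Prm3 and 30.5 ± 20.3 for Hils1 (SD, n = 6 libraries of both diets). Tnp2, above Tnp1 in every spermatid library, had a range (51.1 to 519) that held the whole range of Tnp1 (108 to 483), and Hils1 and Prm3 also overlapped. The 6 genes took 0.356% ± 0.165 of the nuclear counts (SD, n = 6), against 0.738% in spermatids, and the highest sperm library (0.607%) was below the lowest spermatid library (0.652%; exact permutation test, two-sided, p = 0.00216, the lowest that 6 against 6 can reach).

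**Figure D1:**
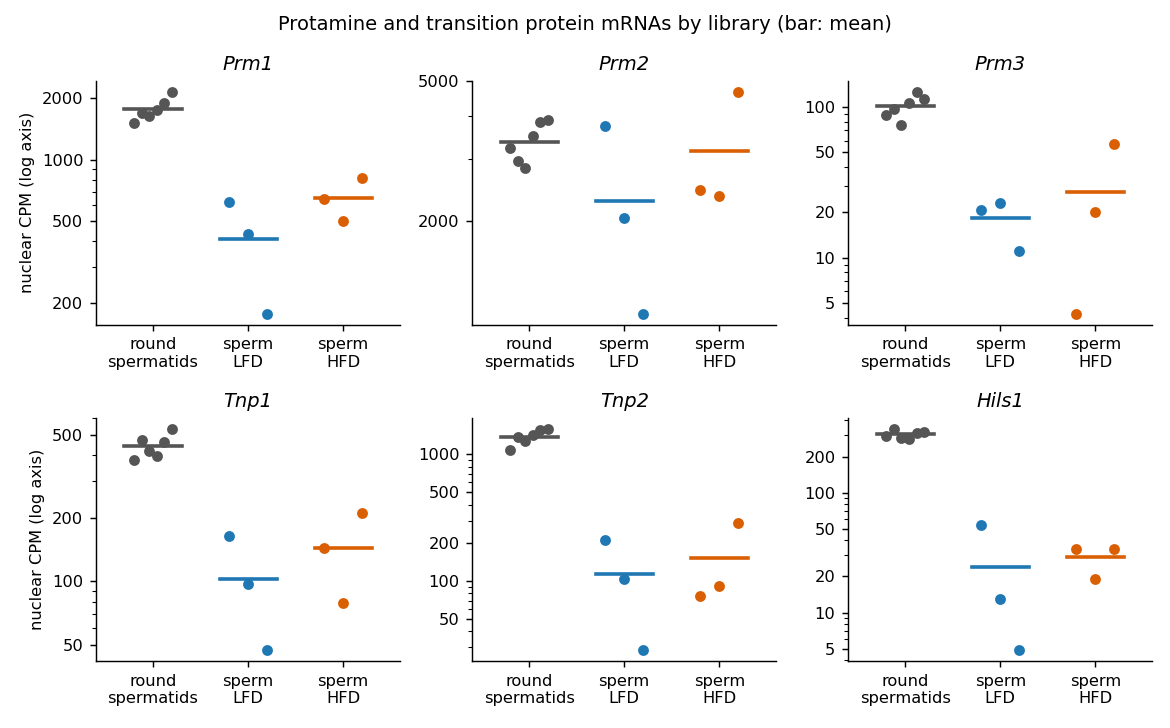
Nuclear CPM (log axis, scaled per panel) of each member in 6 round spermatid, 3 LFD sperm and 3 HFD sperm libraries; points are libraries and bars are means. For all members except Prm2, every sperm library lies below every spermatid library, and the libraries of both diets overlap.

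Prm2 had the smallest difference between sperm and spermatids of the 6 members. It ranged from 2834 to 3872 nuclear CPM in round spermatids, with a median of 3358. HFD sperm held 2461, 2366 and 4663 nuclear CPM in libraries 1000, 3000 and 4000, and LFD sperm held 3731, 2038 and 1092 in libraries 1000, 2000 and 4000. HFD library 4000 was above all spermatid libraries, LFD library 1000 was within their range, and the other 4 sperm libraries were below it. In edgeR's fit of sperm over spermatids (18657 genes tested, TMM scaling) the log2 fold change of Prm2 was -0.07 (SE 0.41, adjusted p = 0.883). This was the only member that did not pass, and its call depended on library and scale: it was -0.73 without HFD library 4000 (adjusted p = 0.0394), -1.003 with LFD sperm alone (adjusted p = 0.0185) and -2.11 when library totals replaced TMM (adjusted p = 1.14e-05). Leaving out a sperm library also changed the set of genes tested, to 21128 to 21300 genes. In CPM of all counts the mean of Prm2 was 4.32-fold lower in sperm, without overlap.

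Prm1, its partner in the mature nucleus, ranged from 1521 to 2146 nuclear CPM in spermatids (median 1726). HFD sperm held 641, 505 and 817 nuclear CPM in libraries 1000, 3000 and 4000, and LFD sperm 620, 434 and 177 in libraries 1000, 2000 and 4000. No sperm library reached the lowest spermatid library, and the mean was 3.34-fold lower in sperm. On the TMM scale Prm1 fell by 1.52 (log2, SE 0.40, adjusted p = 0.00336).

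Tnp1, the more lysine-rich transition protein, and Prm3 came next. Tnp1 ranged from 380 to 532.5 nuclear CPM in spermatids (median 440), and HFD sperm held 144, 78.7 and 211, LFD sperm 165, 97.4 and 47.0, in the library order given for Prm1. Its log2 fold change was -1.62 (SE 0.41, adjusted p = 0.00251). No sperm library of Tnp1 was within the spermatid range. Prm3, the acidic member, ranged from 75.9 to 126 nuclear CPM in spermatids (median 102). HFD sperm held 4.24, 20.2 and 57.0 and LFD sperm 20.6, 23.2 and 11.1, the lowest of them resting on 2 counts and the highest on 44. Its log2 fold change was -1.92 (SE 0.51, adjusted p = 0.00340), and on the TMM scale, unlike in nuclear CPM, the sperm and spermatid libraries of Prm3 overlapped.

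Tnp2 and Hils1 fell furthest. Tnp2 ranged from 1089 to 1589 nuclear CPM in spermatids (median 1392), against 76.4, 91.0 and 288 in HFD sperm and 211, 104 and 28.3 in LFD sperm. Its mean was 10.4-fold lower in sperm, and its log2 fold change was -3.10 (SE 0.55, adjusted p = 0.000158). Hils1 ranged from 282 to 341 nuclear CPM in spermatids (median 303), the narrowest relative range of the 6 genes, against 34.0, 19.1 and 33.7 in HFD sperm and 53.4, 12.98 and 4.84 in LFD sperm. These are 7 to 57 counts per sperm library. The mean was 11.6-fold lower in sperm, and the log2 fold change was -3.43 (SE 0.48, adjusted p = 1.49e-05).

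So 5 of 6 members passed as lower in sperm. This has to be read against the background, since 48.1% of all tested genes passed as lower and 26.2% as higher, and the median of all genes was -0.91 on the TMM scale (-2.54 with library totals). Sperm libraries lay entirely below spermatid libraries, on the TMM scale, for 4 of 6 members and for 41.7% of all tested genes. The median of the members was -1.77, and among all tested genes Hils1 stood at percentile 24.2, Tnp2 at 26.9, Prm3 at 37.8, Tnp1 at 41.0, Prm1 at 42.2 and Prm2 at 61.1. Prm2 thus lay above the median gene and the other 5 members below it. The 5 calls held under each of the 20 alternatives run for them.

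The ratio of one member to another within a library needs no scaling, and it changed in 10 of 15 pairs (exact permutation test, two-sided, adjusted over 15 pairs). These pairs share the same 6 genes and are not independent. No share over pairs of other genes was computed, so the count has no background to be read against. Prm2 per kilobase was 1.22 ± 0.105 times Prm1 in spermatids (range 1.11 to 1.35) and 3.31 ± 0.588 times Prm1 in sperm (2.45 to 3.94; SD, n = 6 each), a 2.69-fold shift (exact permutation test, p = 0.00216, adjusted p = 0.0036). With each table's own lengths the ratio in spermatids was 0.999 ± 0.0863 (0.908 to 1.11; SD, n = 6), and that in sperm was as given. With either length, all 6 sperm libraries were above all 6 spermatid libraries, in both diets. Prm2 rose against each of the other 5 members, by 2.92-fold against Tnp1, 4.05-fold against Prm3, 9.67-fold against Tnp2 and 10.7-fold against Hils1, each without overlap and with the same p. Of the counts on the 6 genes, not corrected for length, Prm2 held 45.7% ± 2.33 in spermatids and 76.7% ± 2.37 in sperm (SD, n = 6 each).

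Prm1 and Tnp1 also parted from Tnp2 and Hils1. Prm1 rose 3.59-fold against Tnp2 and 3.96-fold against Hils1, and Tnp1 rose 3.31-fold against Tnp2 and 3.65-fold against Hils1, again each with an exact permutation p = 0.00216 (adjusted p = 0.0036) and without overlap. Both transition proteins therefore parted, and Tnp1 per kilobase was 0.409 times Tnp2 in spermatids and 1.45 times Tnp2 in sperm. Prm1 against Tnp1 shifted by 0.12 on the log2 scale (p = 0.452, adjusted p = 0.487, exact permutation test), and the ranges of the ratio overlapped, from 2.75 to 3.40 in spermatids and from 2.87 to 4.88 in sperm. Tnp2 against Hils1 shifted by 0.14 (p = 0.671, adjusted p = 0.671, exact permutation test), with a wider range of the ratio in sperm (3.45 to 13.1) than in spermatids (5.78 to 7.83). Missing the threshold does not show that such pairs are lost alike. Prm3 was the least certain, as its ratios in sperm rest on 2 to 44 counts. Its shift against Tnp2 passed (1.26 on the log2 scale, adjusted p = 0.0195) and that against Hils1 did not (1.40, adjusted p = 0.0679, exact permutation tests). The ranges of sperm and spermatids overlapped for Prm3 against Tnp2, Hils1, Prm1 and Tnp1 alike.

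**Figure D2:**
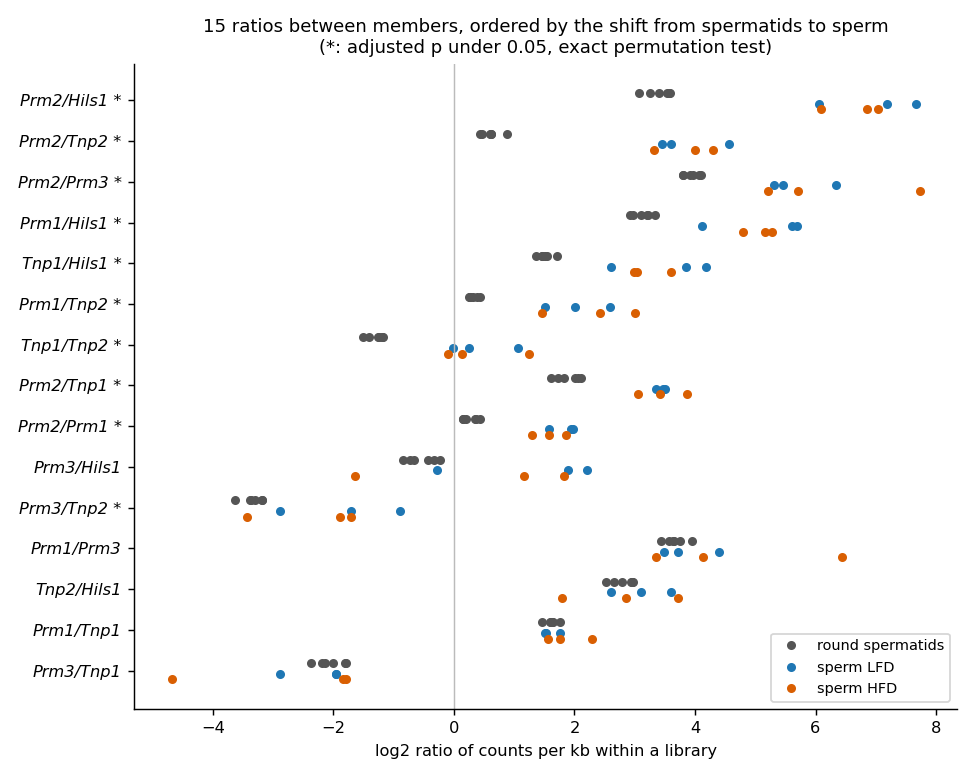
Log2 ratio of counts per kilobase for the 15 pairs of members, a point for each library, with round spermatids in grey, LFD sperm in blue and HFD sperm in orange; asterisks mark the 10 pairs past the threshold. The 5 ratios with Prm2 on top, Prm1 and Tnp1 over Tnp2 or Hils1 shift to the right in all sperm libraries, and the diets overlap in all 15 pairs.

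Other chromatin genes of haploid cells mostly fell too, where 48.1% of all tested genes passed as lower and 26.2% as higher. Of 17 genes for haploid chromatin (spermatid histones and the factors that remove or read histones), 15 passed as lower and 2 as higher, with a median of -2.53 (-2.14 with genes at 0 in all sperm libraries set to their bound). Hist1h1t, the testis linker histone, was at 0 in all sperm libraries and at least 290-fold lower, and Hist1h2aa, a testis H2A, was at 0 too and at least 31.6-fold lower (bounds from 3 counts over the 6 libraries). Rnf8, a ubiquitin ligase, and Epc1, of a histone acetyltransferase complex, were those at 1.02 (adjusted p = 0.0493) and 0.72 (adjusted p = 0.0476), calls that were lost with DESeq2 size factors and nuclear genes alone, and both values were negative with library totals.

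All 17 regulators of the protamine and transition protein mRNAs passed as lower in sperm, with a median of -4.03. Of all tested genes 48.1% passed as lower, with a median of -0.91. Fhl5, the coactivator of CREM in spermatids, fell by 6.21 (adjusted p = 1.81e-07, 10 counts in all sperm libraries), and Ddx25, an RNA helicase of germ-cell granules, fell by 6.16 (adjusted p = 3.3e-08, 36 counts). Crem itself, named here after its value was seen, fell by 0.73 (adjusted p = 0.0439), the least of the 17 and less than the median gene. The genes that spermatids express before the protamines stood lower still: all 18 early haploid genes, many of the acrosome, passed as lower (median -5.60), with Spaca3 and Lyzl1 at 0 in all sperm libraries and at least 232-fold and 147-fold lower. All 13 meiotic markers passed as lower (median -4.28), led by Spo11, which makes the meiotic breaks (-6.26, on 5 counts in 1 sperm library), and Tex101 (-5.59, on 8 counts).

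Late spermatid genes, of the sperm tail, sheath and metabolism, moved in both directions, as did all tested genes together. Over all tested genes 48.1% passed as lower and 26.2% as higher, with a median of -0.91. Of 24 late spermatid genes tested, 14 passed as lower and 5 as higher, with a median of -1.21, a split near that share. It depended on the scale. With library totals 20 passed as lower and 2 as higher (median -3.22, against -2.54 for all genes). With DESeq2 size factors 15 passed as lower and 4 as higher. The shares over all genes under these scales are not given here. Spata18, higher under TMM (1.19, adjusted p = 0.0242), then passed as lower with library totals (-0.95, adjusted p = 0.00532). Smcp, of the mitochondrial capsule, was higher by 3.90 (SE 0.58, adjusted p = 2.81e-05), and Odf1, of the outer dense fibres, by 3.68 (SE 0.53, adjusted p = 2.13e-05), and both stayed higher with library totals (1.63 and 1.44). Odf3 and Tsga8, of the same list, were nearly absent from sperm, with 1 and 3 counts in the 6 libraries together, and their fitted values (-9.95 and -8.63) depend on the prior count. Against the summed counts of this list, the 6 members fell 3.59-fold, from 40.5 ± 3.05 to 11.3 ± 3.40 counts per 100 (SD, n = 6 each, exact permutation test, p = 0.00216). Smcp and Odf1 held 10.97 to 12.76% of the counts of this list in spermatids and 65.0 to 73.8% in sperm. Without these 2 genes the members had 46.0 ± 3.72 counts per 100 in spermatids and 36.6 ± 7.5 in sperm, a 1.26-fold fall, and the ranges overlapped (41.0 to 50.1 and 22.2 to 43.2; SD, n = 6 each, exact permutation test, p = 0.00649, chosen after seeing the data).

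**Figure D3:**
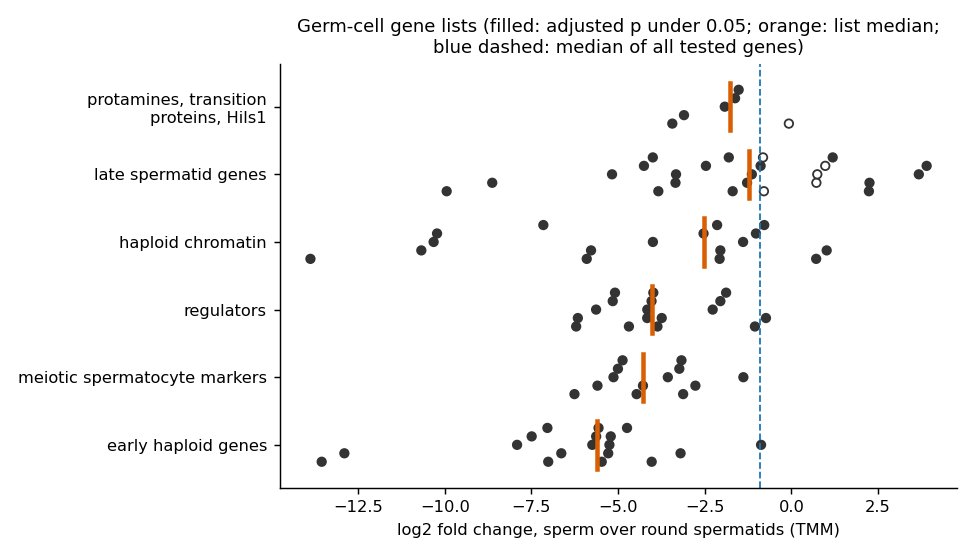
Log2 fold change of sperm over round spermatids (TMM scale) for the tested genes of 6 germ-cell lists; filled points passed the adjusted threshold, orange bars are list medians and the dashed line is the median of all tested genes (-0.91). The members have a median of -1.77 against -5.60 for early haploid genes; values far to the left for genes at 0 in sperm depend on the prior count.

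The genes most like each member over the 12 germ-cell libraries were found by the root-mean-square difference of centred log2 CPM among 2176 genes with a mean of at least 50 CPM. For Prm1 these were Gapdhs (0.159), Hrasls5 (0.179) and Efcab5 (0.185), and for Tnp1 they were Gapdhs (0.158), Spata6 (0.164) and Hrasls5 (0.176). Prm1 and Tnp1, on different chromosomes, thus shared Gapdhs, the sperm glycolytic enzyme, and Hrasls5. For Prm2 they were Cptp (0.171), Iqcf3 (0.206) and Kif2c (0.212). The nearest genes were less close for Prm3 (Ubxn11, 0.345, Gm39566, 0.366, and Asap1, 0.373), Tnp2 (2610318N02Rik, 0.343, Mroh2b, 0.344, and Ulk4, 0.393) and Hils1 (Hspa4l, 0.325, March10, 0.339, and Lrrc37a, 0.367). The measure includes the difference between sperm and spermatids, and near genes had like values in it. Gapdhs was at -1.69, beside -1.52 for Prm1 and -1.62 for Tnp1, and Cptp at -0.06, beside -0.07 for Prm2. Prm3 and Hils1 rest on 2 to 57 counts per sperm library, so their distances also hold counting error.

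The diet comparison asked whether 2 weeks of HFD changed these mRNAs in cauda sperm. No member passed, and no gene of 8643 tested passed (0% with edgeR, smallest adjusted p = 0.231, 1124 genes at an unadjusted p under 0.05; limma-voom 0, DESeq2 295, no member among them). Under TMM scaling all 6 members had higher values on HFD, from 0.93 for Hils1 to 1.44 for Prm3, with a median of 1.22 against -0.07 over all genes. Under library totals all 6 were lower, from -0.71 to -0.34, so the sign of the difference depended on the scale, and the median of all genes was then -1.84.

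Prm1 was the member whose diets did not overlap on the TMM scale. HFD libraries 1000, 3000 and 4000 held 198, 157 and 392 TMM-scaled CPM, and LFD libraries 1000, 2000 and 4000 held 151, 99.8 and 39.3. Its log2 fold change was 1.36 (SE 0.57, adjusted p = 0.325), and 8.21% of all tested genes had every HFD library above every LFD library. In nuclear CPM, where HFD sperm held 505 to 817 and LFD sperm 177 to 620, the diets of Prm1 overlapped. For Prm2, HFD libraries held 759, 737 and 2240 TMM-scaled CPM and LFD libraries 912, 468 and 242 (log2 fold change 1.20, SE 0.64, adjusted p = 0.455). HFD library 4000 was the highest for all 6 members on this scale, and LFD library 4000 the lowest for all but Prm3. For Tnp1, HFD libraries held 44.5, 24.5 and 101 and LFD libraries 40.3, 22.4 and 10.4 (1.22, adjusted p = 0.434), and for Tnp2 they held 23.6, 28.4 and 138 against 51.5, 23.9 and 6.29 (1.22, adjusted p = 0.545). Prm3 (1.44, adjusted p = 0.564) and Hils1 (0.93, adjusted p = 0.720) rested on 2 to 57 counts a library. Without HFD library 4000, Prm3 and Tnp2 had negative values (-0.12 and -0.0772).

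Other genes moved with the libraries. The late spermatid list was also higher on HFD under TMM (21 of 22 tested genes, median 1.46, none passed), while 7 of 8 tested epididymal markers were lower (median -0.58). Of the leukocyte, erythroid and stromal markers, 14 of 15 tested genes had higher values on HFD under TMM (median 1.67, none passed). Their summed CPM was 432 to 1730 on HFD and 1954 to 4229 on LFD, but Cd52 made up much of these sums. It held 1489, 3040 and 862 counts in HFD libraries 1000, 3000 and 4000. In LFD libraries 1000, 2000 and 4000 it held 4401, 6419 and 9896. The sums therefore do not describe the list gene by gene. The epididymal list summed to 27110 CPM in LFD library 4000, which had the lowest nuclear CPM of Prm1, Prm2, Tnp1, Tnp2 and Hils1, and to 1728 to 9350 in the other sperm libraries. Without LFD library 4000 the value of Prm1 was 1.01 (adjusted p = 0.786). The part of these cells in the diet values was not tested.

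Measured against the late spermatid list, the members had lower values on HFD. They made 8.67 ± 2.48 counts per 100 counts of that list on HFD (5.83, 10.3 and 9.86) and 13.9 ± 1.56 on LFD (14.5, 12.1 and 15.1; SD, n = 3), with all HFD libraries below all LFD libraries (exact permutation test, two-sided, p = 0.1, the lowest that 3 against 3 can reach). Prm1 (1.38 ± 0.294 on HFD, 1.92 ± 0.0459 on LFD), Prm2 (6.59 ± 2.02 and 10.8 ± 1.54) and Tnp1 (0.286 ± 0.0502 and 0.484 ± 0.0440) had no overlap, and Prm3, Tnp2 and Hils1 overlapped (adjusted p = 0.2 at the lowest over the 6 genes, exact permutation tests). With this list as library size in edgeR, the members ranged from -0.76 to -0.48 and none passed. The median of all genes was then -2.10, lower than each member. Smcp and Odf1, whose values on HFD were 2.05 (adjusted p = 0.276) and 2.00 (adjusted p = 0.272) in edgeR's fit with TMM scaling, held 72.4 to 73.8% of the counts of this list on HFD and 65.0 to 69.0% on LFD. Without them the members made 31.9 ± 8.49 counts per 100 on HFD and 41.2 ± 2.11 on LFD (SD, n = 3, exact permutation test, p = 0.1), again without overlap, and of the single genes Prm2 and Tnp1 did not overlap while Prm1 did. Both denominators were chosen after the values were seen. No share of all genes without overlap was computed on them, so the members without overlap have no background to be read against.

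**Figure D4:**
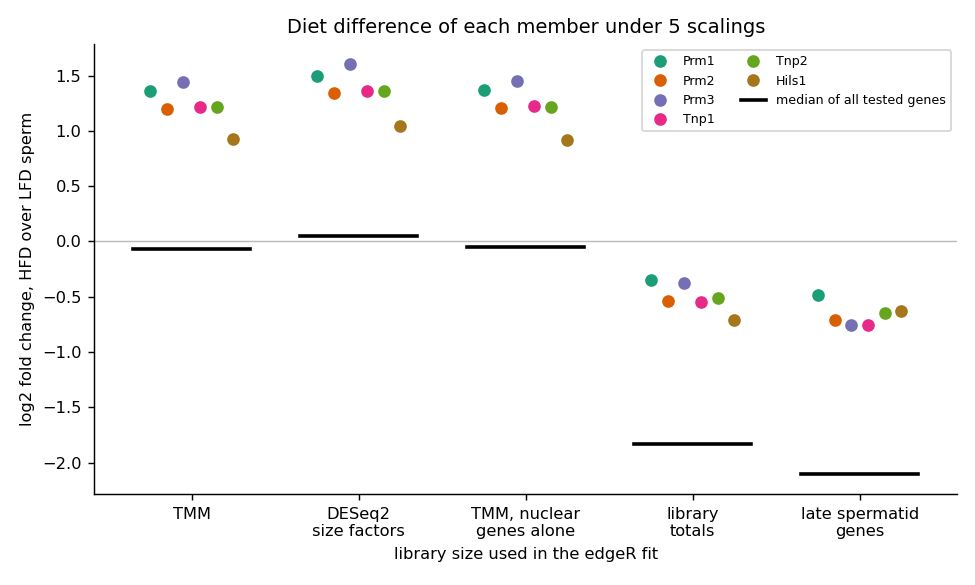
Log2 fold change of HFD over LFD sperm for each member (coloured points) in edgeR fits with 5 library sizes, with the median of all tested genes as a black bar. Members lie between 0.93 and 1.44 under TMM and between -0.76 and -0.48 with late spermatid genes as library size, above the median gene in each fit; no value passed the adjusted threshold.

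No ratio of members separated the diets. In all 15 pairs the HFD and LFD libraries overlapped, and the smallest p was 0.2, for Prm2 over Prm1 (3.03 ± 0.598 on HFD and 3.59 ± 0.518 on LFD, SD, n = 3, exact permutation test, adjusted p = 1.0). The share of the 6 genes in nuclear counts was 0.417% ± 0.165 on HFD and 0.296% ± 0.173 on LFD (p = 0.4, two-sided exact permutation test). Of all counts the sign was opposite, 0.0825% ± 0.0394 on HFD and 0.116% ± 0.0525 on LFD (p = 0.5, exact permutation test; SD, n = 3 each).

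Outside germ cells the members were at or near 0, in libraries that for liver, eWAT and gastrocnemius came from another kit. Liver had 0 member counts in 6 libraries of 13479431 counts in sum, which allows 0.223 CPM in the pooled libraries. Gastrocnemius had 2, both in 1 library. The 6 morula libraries had 1 to 8 counts of Prm1 and Prm2 and 0 of the other members, in 71005346 counts. In eWAT 5 libraries had 0 to 5 member counts and 1 library had 216. Each of these tissues had its own markers, from 359 to 468 CPM in sum for morula, 44000 to 64800 for liver, 14900 to 28900 for eWAT and 38400 to 81400 for gastrocnemius.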

How the data were processed

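Gene counts of 36 libraries in 6 tables were used as deposited. Per the labels and the study's methods, the authors trimmed reads with BBDuk, aligned them to GRCm38 with STAR and made the counts with featureCounts on a web platform; tool versions and the use of strand are not given in the sources used here. Columns of sperm show the diet by their first letter, but not which sample, and were matched to a diet group. Columns of round spermatids, morula, liver, eWAT and gastrocnemius were matched to the tissue alone.

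The 6 members and the other gene lists were chosen with earlier results of these data known. Diet (3 HFD and 3 LFD sperm libraries) and sperm against round spermatids (51746 genes in both tables) were each tested with edgeR's quasi-likelihood test (edgeR 4.0.16, R 4.3.3) with TMM scaling, filterByExpr (minimum count 10) and Benjamini-Hochberg adjustment over all genes tested (threshold 0.05). Ratios used log2 of counts plus 0.5 per kilobase. Genes named from a list were up to 2 tested genes with the largest rise and up to 2 with the largest fall in sperm over spermatids. The fits were tested on simulated data with 200 genes changed by 2 on the log2 scale: 61.5% were recovered for sperm against spermatids and 10% for diet. DESeq2 1.42.0 and limma 3.58.1 gave alternatives. BLAST 2.17.0 searched for near-identical transcripts.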

Additional observations from a re-analysis of the deposited data

Results flagged for a closer look

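One eWAT library stood far above the other 5 for 4 members, by the gap of its value against the range of the group. It held 25.35 nuclear CPM of Prm1, 28.09 of Prm2, 11.99 of Tnp1 and 7.537 of Tnp2. Chance marks about 1 in 20 such groups, and 27 were examined. Its 216 member counts came with 33 counts of Smcp, 29 of Odf1 and 3 of Akap4. Per 100 member counts it held 38.0 of Prm2 and 15.3 of Smcp. Sperm, from another library kit, held 210 to 738 of Smcp per 100, and Prm2 made 76.7% of member counts there and 45.7% in spermatids. The epididymal markers of this eWAT library summed to 145.8 CPM, against 4.585 to 21.82 in the other 5 eWAT libraries (10 markers at 0, against 8 to 13). Crisp1, of that list, had 0 counts in it and 9 in eWAT library 18. Its Sertoli and Leydig markers summed to 372.7 CPM, against 31.32 to 89.4. The cause was not tested.

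Member counts above the limit that a count of 0 allows were also found in tissues outside the comparisons. They were 5, 4, 8 and 4 in 4 of the 6 morula libraries, all of Prm1 and Prm2, and 4 and 5 in another pair of eWAT libraries.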

How the results depend on the processing

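In sperm against round spermatids, Prm1, Prm3, Tnp1, Tnp2 and Hils1 stayed lower and past the threshold in all 20 alternatives, and Prm2 ranged from -0.73 to 0.20 when a library was left out (0.0958 or more when it was a spermatid library). The filter then kept another set of genes. It left 21128 to 21300 without a sperm library and 14588 to 14653 without a spermatid library, against 18657 in the main fit. Of the ratios, 3 pairs that did not pass changed sign: Prm3/Tnp1 was 0.11 with medians, Prm1/Tnp1 was -0.17 with each table's own lengths and -0.0151 with LFD sperm alone, and Tnp2/Hils1 was -0.0174 with HFD sperm alone and -0.01025 to 0.37 when a library was left out. Prm3/Tnp2 was lost with medians (adjusted p = 0.0532) and HFD sperm alone (0.107), exact permutation tests.

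For diet, genes past the threshold numbered 3357 with library totals, 41 without a filter, 295 with DESeq2 and 2 with the replicate block, where Prm1 was 1.85 (adjusted p = 0.783). The numbers 1000 and 4000 are shared by both diets, and the deviations of their libraries correlated at 0.156 and -0.21. With 3 libraries per diet these values cannot show whether the numbers pair the samples, and the labels do not say. No member passed in any alternative. With library totals Prm1 was -0.34, Prm2 -0.54, Prm3 -0.38, Tnp1 -0.54, Tnp2 -0.51 and Hils1 -0.71. With late spermatid genes as library size, chosen after seeing the data, they were -0.48, -0.71, -0.76, -0.76, -0.64 and -0.63, and leaving out a library then gave 0 to 2793 genes past the threshold (2793 without HFD library 3000, 1754 without LFD library 1000) and -0.89 to 0.0839 for Hils1. Under TMM, leaving out a library gave -0.12 to 1.93 for Prm3 and -0.0772 to 2.18 for Tnp2, both negative without HFD library 4000. The share of the members, HFD minus LFD, was -0.0336 percentage points of all counts and -5.21 per 100 counts of the late spermatid list (-9.25 without Smcp and Odf1), against 0.12 percentage points of nuclear counts. Pairs whose ratio did not overlap between diets numbered 0, and 0 to 4 when a library was left out. Depth limits Prm3 and Hils1 in sperm most, and the cause of these changes was not tested.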
